A study of Rattus norvegicus with 210 samples.

Results

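The transcriptome of the preoptic area (POA) was compared on postnatal day (PND) 42 between female Sprague-Dawley rats exposed before weaning to the highest dose of diethylstilbestrol (DES) and rats exposed to vehicle. The comparison took the 10 POA libraries that the labels place in these groups, of 210 libraries in the series, with 5 vehicle and 5 DES libraries. Mothers received corn oil alone, or DES in it at 12 µg/kg body weight per day, by daily gavage. Dosing began on gestation day 7 and paused on the day of birth and it ended at PND22, well before tissue was taken. Each library came from its own rat by the numbers in the labels, and neither the litter nor the stage of the estrous cycle at PND42 was given in the sources used here. Of 32883 genes in the table, 14525 had enough counts to be tested. Values are counts scaled to the total counted reads of each library (CPM), changes are log2 fold changes of DES over vehicle, and a gene was called when its p-value, adjusted over all genes tested, was under 0.05.

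The POA forms the anterior part of the hypothalamus and holds most of the neurons that release gonadotropin-releasing hormone (GnRH), the peptide that drives the pituitary at puberty and in each ovarian cycle. GABA neurons, kisspeptin neurons and glial cells signal to GnRH neurons, and many of these cells carry receptors for estradiol and progesterone. DES is a synthetic estrogen that binds both estrogen receptors, and the perinatal period is when sex steroids shape this circuit. The comparison asks whether a difference in gene expression was present at PND42, an age that the authors place after puberty, once exposure had ended.

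Depth separated the groups, with 15592294 to 16979710 counted reads in the vehicle libraries and 19656342 to 22647562 in the DES libraries. With all libraries thinned to the smallest total, an alternative chosen after seeing the data, 135 genes were called, against 149 at full depth. Mitochondrial genes took 6.99% to 8.93% of reads in vehicle and 6.64% to 7.74% in DES libraries. Correlations of log2 CPM between libraries lay between 0.984 and 0.992. Vehicle replicate 3 stood apart in markers of the neighbouring thalamus, whose summed level was 1100 CPM there and 358 to 536 CPM in the other 4 vehicle libraries. The DES libraries held 297 to 484 CPM of the same markers. Marker genes of neurons, of oligodendrocytes and of astrocytes were present in every library, and Gnrh1, which encodes GnRH, was detected in all 10. In bulk tissue, fewer cells of a type and less RNA per cell cannot be told apart.

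At PND42, 149 genes were called, which is 1.03% of the genes tested, and 141 of them were higher after DES. The higher genes had a median log2 fold change of 0.43, with a range of 0.21 to 1.67. Of these, 92 changed by less than 0.5, 41 by 0.5 to 1 and 8 by 1 or more. Over all genes tested, 48.9% had a log2 fold change above 0. Among the 141 higher genes, 132 were higher in every DES library than in every vehicle library, a pattern found in 3.11% of all genes tested. The lowest adjusted p-value of edgeR's quasi-likelihood test was 0.00242, and before adjustment 2333 genes had a p-value under 0.05 (1492 higher, 841 lower). Leaving out 1 library left between 1 and 293 calls. Without vehicle replicate 1, 2 genes were called, and without vehicle replicates 2 to 5 there were 35, 75, 70 and 293. Without DES replicates 1 to 5 there were 1, 1, 218, 1 and 3. In each of these 10 fits, all 149 genes kept their sign and an unadjusted p-value under 0.05. The 149 genes were chosen for small p-values over all 10 libraries, and each fit leaves out only 1. Kept signs and p-values are therefore no independent support.

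**Figure D1:**
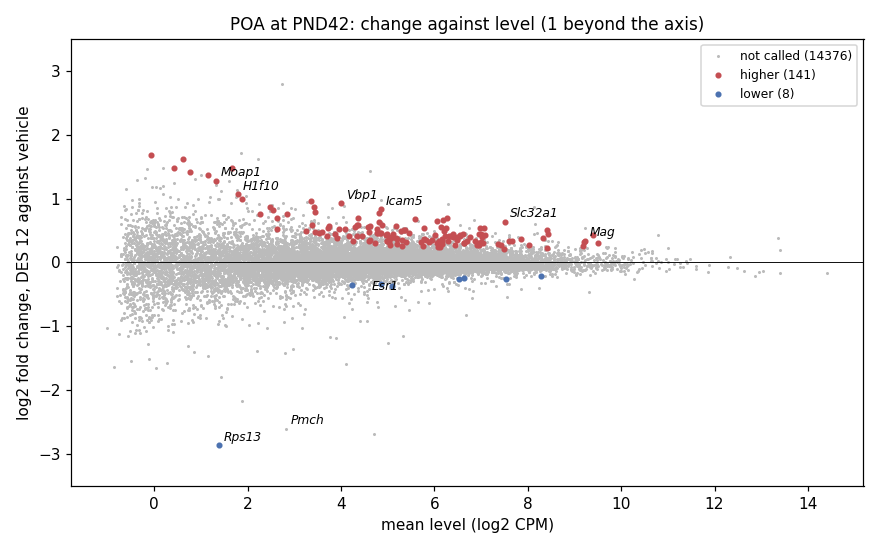
Log2 fold change of DES 12 over vehicle in the POA at PND42 against the mean level in log2 CPM, with 1 point per gene tested. The 141 genes called higher (red) lie above 0 at all levels, and the 8 called lower (blue) include Rps13 at -2.87; 1 uncalled gene lies beyond the axis.

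Promoter sequences of 3 called genes described below are shown because estrogen receptors bind pairs of the hexamer AGGTCA. Icam5 and Slc32a1 were kept whatever they held, and Gfap was taken from the called genes that held the hexamer. The 3 are therefore no sample of the called genes. They are from RefSeq on the assembly GRCr8, written in the direction of the gene, from 250 bases before its start to 50 after it. Capitals mark AGGTCA or its reverse complement TGACCT. The palindrome GGTCANNNTGACC was searched too on both strands, and its arms overlap the hexamers.
Icam5 (chr8:27844530-27844829, + strand): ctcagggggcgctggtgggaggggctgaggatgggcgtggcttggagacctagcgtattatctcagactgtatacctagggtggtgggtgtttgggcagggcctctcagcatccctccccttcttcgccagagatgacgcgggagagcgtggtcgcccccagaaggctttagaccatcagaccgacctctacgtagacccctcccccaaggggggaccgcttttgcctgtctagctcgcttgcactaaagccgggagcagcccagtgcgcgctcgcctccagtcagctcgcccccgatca
Slc32a1 (chr3:167686995-167687294, + strand): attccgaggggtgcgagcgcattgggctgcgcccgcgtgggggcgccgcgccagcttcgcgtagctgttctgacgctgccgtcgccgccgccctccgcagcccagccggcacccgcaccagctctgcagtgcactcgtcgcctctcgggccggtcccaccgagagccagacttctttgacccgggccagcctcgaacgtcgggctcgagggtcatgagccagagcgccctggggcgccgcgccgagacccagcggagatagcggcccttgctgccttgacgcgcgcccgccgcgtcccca
Gfap (chr10:88361612-88361911, - strand): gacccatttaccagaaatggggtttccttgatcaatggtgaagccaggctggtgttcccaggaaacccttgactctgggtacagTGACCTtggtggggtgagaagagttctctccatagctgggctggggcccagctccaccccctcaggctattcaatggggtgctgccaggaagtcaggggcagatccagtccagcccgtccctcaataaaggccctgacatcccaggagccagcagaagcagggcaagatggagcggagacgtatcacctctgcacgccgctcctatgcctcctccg
Gfap carried 1 such hexamer in this window, and Icam5 and Slc32a1 carried none. Of 33469 promoters of this length in the rat table, 16.2% held the hexamer on either strand and 0.0269% the palindrome. A promoter could be matched by symbol or synonym to 111 of the 149 called genes (74.5%), of which 8 held the hexamer and 0 the palindrome. Since fewer than 80% of the called genes had a sequence, the set of called genes was not compared with other genes for motifs or base composition. No match says only that these letters are not in these windows.

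Icam5, the gene with the smallest adjusted p-value, encodes telencephalin, an adhesion molecule of the dendrites of forebrain neurons. Its level was 19.9, 20.3, 20.2, 21.4 and 21.6 CPM in the vehicle libraries and 38.1, 31.6, 32.9, 37.7 and 42.8 CPM in the DES libraries. The groups did not overlap, and vehicle libraries were close to each other while the DES libraries spread more widely. The mean was 20.7 ± 0.784 CPM in vehicle and 36.6 ± 4.49 CPM after DES (SD, n = 5), a log2 fold change of 0.83 (SE 0.08, adjusted p = 0.00242, edgeR). Icam5 was the one gene called in all 10 fits that left out a library. Among the 10 other alternatives of tool, filter, scaling or design, it kept its call in 9 and lost it in 1.

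Slc32a1 encodes the vesicular transporter that loads GABA and glycine into synaptic vesicles. It stood at 133, 143, 132, 147 and 158 CPM in vehicle and at 246, 250, 186, 214 and 210 CPM after DES. Every DES library lay above every vehicle library, with DES replicate 3 the lowest of its group. The log2 fold change was 0.64 (SE 0.08, adjusted p = 0.0184, edgeR). Among 22 tested genes of GABA signaling it was the single one called, and 9 of the 22 were above 0, with a median of -0.05. Gad1 and Gad2, which encode the enzymes that make GABA, had log2 fold changes of 0.08 (adjusted p = 0.73, edgeR) and 0.10 (adjusted p = 0.474), and both overlapped between groups.

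Nrgn encodes neurogranin, a calmodulin-binding protein of dendritic spines. Its level was 59.6, 55.0, 58.4, 63.4 and 59.0 CPM in vehicle and 101, 99.3, 67.5, 96.1 and 111 CPM after DES, a log2 fold change of 0.69 (SE 0.11, adjusted p = 0.0184, edgeR). As for Slc32a1, replicate 3 was the lowest DES library and still exceeded all vehicle libraries. Camk2n2, an inhibitor of the calcium/calmodulin-dependent kinase II, rose by 0.87 on the log2 scale (adjusted p = 0.0411), from 7.42 ± 2.08 to 13.5 ± 1.83 CPM (SD, n = 5, edgeR). Homer1, a scaffold of the postsynaptic density and also a gene induced by neuronal activity, measured 12.2 CPM (median; 10.8 to 13.6) in vehicle and 17.3 CPM (14.3 to 18.2) after DES. Its log2 fold change was 0.44 (SE 0.09, adjusted p = 0.0467, edgeR). Homer1 was the 1 gene called among 31 of synaptic vesicles and scaffolds, of which 20 were above 0 with a median of 0.07.

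Icam5 and Nrgn are known from the forebrain, and the dissection could carry parts of neighbouring forebrain regions. Of 12 markers of the septum and diagonal band, 11 were above 0 with a median log2 fold change of 0.27, none was called by edgeR (5 had an unadjusted p-value under 0.05, all higher), and DESeq2 called 1. Their summed level was 545 to 718 CPM in vehicle and 572 to 850 CPM after DES, and within the DES group it was lowest in replicate 3. For 13 markers of striatum and accumbens, 11 were above 0 with a median of 0.18, and the sums were 408 to 489 CPM and 416 to 537 CPM, again lowest in replicate 3 within the DES group. Excitatory neurons of cortex and hippocampus gave 54.6 to 102 CPM and 61.6 to 74.2 CPM over 8 markers. The sums overlapped in all 3 lists, and their part in the levels of Icam5, Nrgn and Slc32a1 was not tested.

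**Figure D2:**
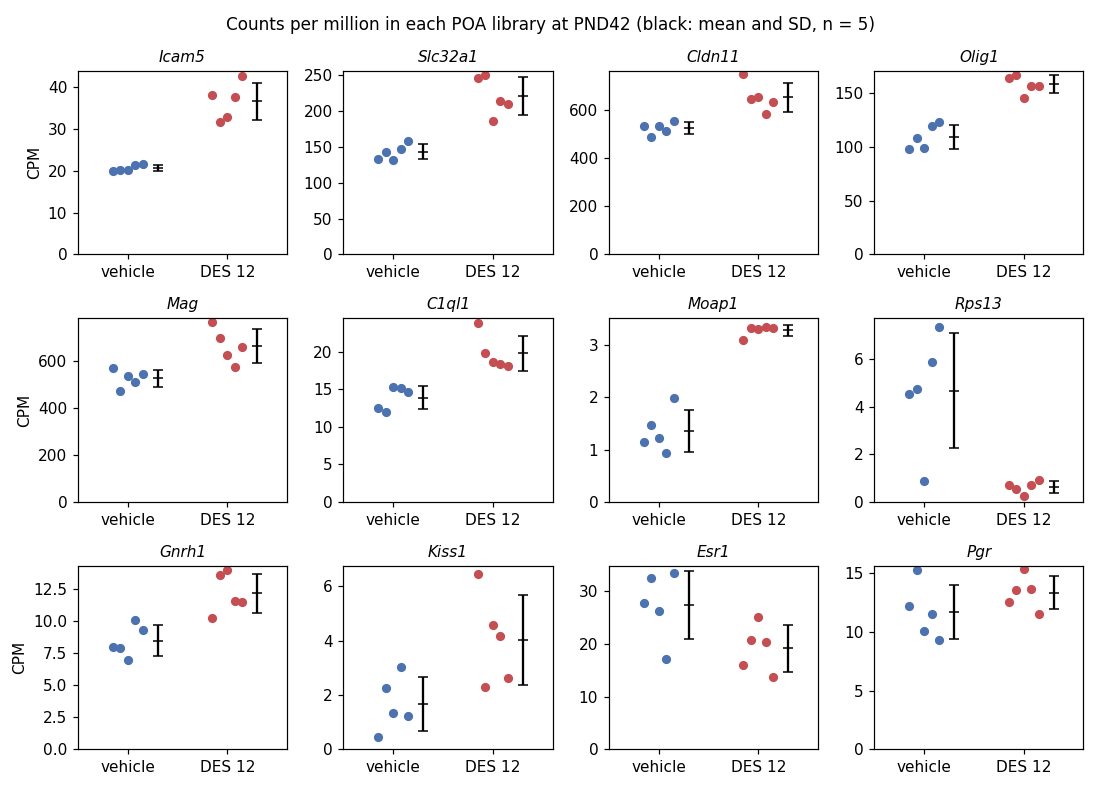
Level in CPM of 12 genes in each POA library at PND42 (blue, vehicle; red, DES 12), with the mean and SD of 5 libraries in black and every axis starting at 0. The groups do not overlap for Icam5, Slc32a1, Cldn11, Olig1, Mag, C1ql1, Moap1 and Gnrh1 and overlap for Rps13, Kiss1, Esr1 and Pgr. Of Gnrh1, Kiss1, Esr1 and Pgr, edgeR called none. DESeq2 called Gnrh1 and Kiss1 in the fit of these groups alone and not in a fit with all DES doses.

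Oligodendrocytes form the myelin around axons and arise from precursor cells throughout juvenile life. Among 17 tested markers of mature oligodendrocytes, 16 were above 0, 2 were called higher (Mag and Cldn11) and none lower, with a median log2 fold change of 0.15. The summed level of the list was 24500 to 27900 CPM in vehicle and 28900 to 32400 CPM after DES, without overlap. Among 10 tested markers of precursors and newly formed oligodendrocytes, all 10 were above 0 with a median of 0.21, and C1ql1 and Olig2 were called. Over all genes tested the median was -0.00384 and 0.971% were called higher.

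Mag encodes a myelin glycoprotein at the contact with the axon. Vehicle libraries measured 570, 474, 537, 511 and 543 CPM of Mag and DES libraries 767, 698, 626, 575 and 658 CPM. The lowest DES library, replicate 4, exceeded the highest vehicle library by a narrow margin. The log2 fold change was 0.34 (SE 0.07, adjusted p = 0.0421, edgeR). Cldn11, which encodes the claudin of the tight junctions between myelin layers, measured 531, 487, 531, 513 and 552 CPM in vehicle and 748, 644, 651, 580 and 633 CPM after DES. Its log2 fold change was 0.32 (SE 0.06, adjusted p = 0.0239, edgeR) and the groups did not overlap. Mbp and Mog, which encode further myelin proteins, had log2 fold changes of 0.38 (adjusted p = 0.0636, edgeR) and 0.13 (adjusted p = 0.315), and DESeq2 called Mbp (adjusted p = 0.00423). In all, DESeq2 called 4 of the 17 mature markers and 3 of the 10 precursor markers, all higher.

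Olig1 and Olig2 encode the transcription factors that define the lineage. Olig1 stood at 97.7, 108, 98.6, 119 and 123 CPM in vehicle and at 164, 167, 145, 156 and 156 CPM after DES, with a log2 fold change of 0.54 (SE 0.07, adjusted p = 0.0184, edgeR). Olig2 had medians of 36.6 and 46.8 CPM and a log2 fold change of 0.32 (SE 0.07, adjusted p = 0.0465, edgeR). Neither gene overlapped between groups. C1ql1, a secreted protein made by precursor cells, measured 12.5, 12.0, 15.3, 15.2 and 14.6 CPM in vehicle and 23.9, 19.9, 18.7, 18.4 and 18.1 CPM after DES. Its log2 fold change was 0.52 (SE 0.10, adjusted p = 0.0358, edgeR), and every DES library was above all of the vehicle libraries. Nkx6-2, a transcription factor of myelin formation, rose from 3.82 to 6.90 CPM in the mean, by 0.86 on the log2 scale (adjusted p = 0.0216, edgeR).

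Other genes of the lineage were named after their values were seen. Sox10 and Myrf, transcription factors needed for myelin genes, had log2 fold changes of 0.33 (adjusted p = 0.0227, edgeR) and 0.21 (adjusted p = 0.0358). Gal3st1, the enzyme that makes the myelin lipid sulfatide, and Anln, a septin-binding protein of myelin, changed by 0.49 (adjusted p = 0.0421, edgeR) and 0.51 (adjusted p = 0.0227). In all 4, every DES library exceeded every vehicle library. Adamts4, a protease of the extracellular matrix found in mature oligodendrocytes, measured 88.3, 78.0, 72.8, 75.3 and 71.4 CPM in vehicle and 108, 102, 102, 93.1 and 99.7 CPM after DES. The log2 fold change of Adamts4 was 0.40 (SE 0.06, adjusted p = 0.0184, edgeR). Without vehicle replicate 3, the library rich in thalamus markers, 1 of the 17 mature markers and 1 of the 10 precursor markers were called, 17 of 17 mature markers were above 0, and the medians were 0.15 and 0.21.

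Markers of astrocytes, of neurons and of microglia and macrophages were counted in the same way. Gfap, the intermediate filament of astrocytes, was the 1 called gene of 13 astrocyte markers, of which 12 were above 0 with a median of 0.11. It measured 621, 551, 522, 654 and 539 CPM in vehicle and 723, 669, 946, 818 and 699 CPM after DES, a log2 fold change of 0.43 (SE 0.09, adjusted p = 0.0483, edgeR). DES replicate 3 was the highest library. Aqp4 and Aldh1l1, a water channel and a folate enzyme of astrocytes, had log2 fold changes of 0.10 and 0.01 and were not called. None of 13 general neuron markers was called by edgeR (6 had an unadjusted p-value under 0.05, 3 in each direction, and DESeq2 called 1 higher and 1 lower), 7 were above 0, and their summed level overlapped between groups, at 6760 to 7290 CPM and 6450 to 7420 CPM. Without vehicle replicate 3, none of the astrocyte markers was called. Gfap kept its call in 0 of the 10 fits that left out a library and in 6 of the 10 other alternatives. Of 15 markers of microglia and macrophages, 14 were above 0 with a median of 0.09. None of these was called by edgeR (4 had an unadjusted p-value under 0.05, all higher), and DESeq2 called 4, all higher. A rise of most markers was thus not particular to the oligodendrocyte lists. The summed level of the microglia and macrophage markers overlapped, at 587 to 644 CPM in vehicle and 592 to 727 CPM after DES.

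**Figure D3:**
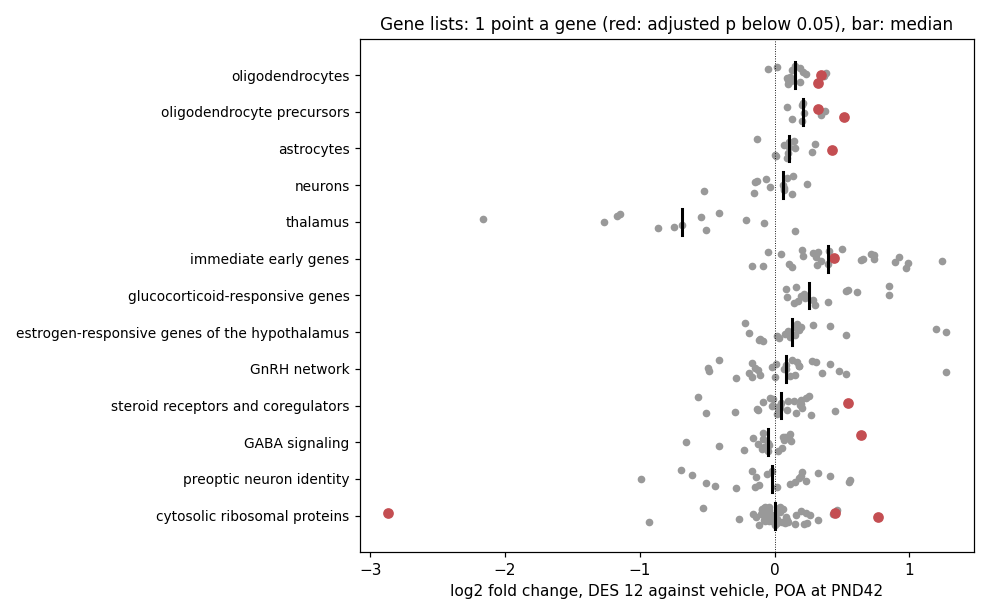
Log2 fold change of DES 12 over vehicle for each tested gene of 13 lists, with the median as a black bar and called genes in red. Oligodendrocyte and precursor markers lie mostly above 0 with medians of 0.15 and 0.21, and thalamus markers lie mostly below 0 with a median of -0.685. Ribosomal protein genes include 2 called higher and 1 called lower. Apart from these and the oligodendrocyte and precursor lists, no list shown holds more than 1 called gene.

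Genes of steroid signaling and of other regulators came next. Of 27 tested genes of steroid receptors, their coregulators and steroid synthesis, 18 were above 0, with a median of 0.05. Crtc1, a coactivator of the factor CREB, rose by 0.43 (adjusted p = 0.0465, edgeR) as the 1 called of 30 genes of CREB and cAMP signaling, and Irs2, an adaptor of the insulin receptor, by 0.33 (adjusted p = 0.0465) as the 1 called of 24 of insulin and IGF signaling. Without vehicle replicate 3, neither was called, and each kept its call in 1 of the 10 fits that left out a library. Six3, a homeobox factor of the anterior forebrain, rose from 4.57 ± 0.604 to 7.39 ± 1.14 CPM (SD, n = 5), a log2 fold change of 0.70 (adjusted p = 0.0396, edgeR).

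The genes for estrogen receptor alpha and the progesterone receptor were called neither by edgeR nor by DESeq2. Esr1, the gene of estrogen receptor alpha, measured 27.7, 32.5, 26.3, 17.2 and 33.4 CPM in vehicle and 16.1, 20.8, 25.2, 20.4 and 13.7 CPM after DES. The groups overlapped through vehicle replicate 4, and the log2 fold change was -0.51 (SE 0.19, adjusted p = 0.197, edgeR). Pgr, the progesterone receptor, which estrogens are known to induce in this tissue, stood at 12.2, 15.2, 10.1, 11.5 and 9.30 CPM and at 12.5, 13.5, 15.3, 13.6 and 11.5 CPM, with a log2 fold change of 0.19 (SE 0.13, adjusted p = 0.492, edgeR). Of 20 tested estrogen-responsive genes of the hypothalamus, none was called by edgeR, 15 were above 0 and the median was 0.13, and 4 had an unadjusted p-value under 0.05, all higher. DESeq2 called 2 of them, Kiss1 and Gnrh1. Among them Greb1 had a log2 fold change of 0.08 and Oxtr, the oxytocin receptor, of 1.20 (adjusted p = 0.0866, edgeR).

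Nor did edgeR call any of 29 tested genes of the GnRH network, 18 being above 0 with a median of 0.08 and 6 having a p-value under 0.05 before adjustment (5 higher, 1 lower). DESeq2 called 3 of them, Gnrh1 and Kiss1 higher and Npy1r, a receptor of neuropeptide Y, lower. Gnrh1 came closest among the named ones. Its level was 8.02, 7.95, 7.01, 10.1 and 9.30 CPM in vehicle and 10.3, 13.6, 14.0, 11.6 and 11.5 CPM after DES, so that the groups did not overlap. The log2 fold change was 0.53 (SE 0.12), and the adjusted p-value of 0.0587 (edgeR) was above the threshold, while DESeq2 called the gene (adjusted p = 0.00530). Kiss1, which encodes the kisspeptin that excites GnRH neurons, had 0.449, 2.24, 1.35, 3.04 and 1.24 CPM in vehicle and 6.45, 2.28, 4.58, 4.16 and 2.62 CPM after DES, with a log2 fold change of 1.27 (SE 0.39, adjusted p = 0.128, edgeR). The spread within each group was wide, and replicates 2 and 5 of DES lay within the range of vehicle. DESeq2 called Kiss1 (adjusted p = 0.0328). Of the 10 alternatives of tool, filter, scaling or design, this DESeq2 fit of the 2 groups was the only one to call Gnrh1 or Kiss1. The other 9, among them a DESeq2 fit of vehicle with all DES doses, called neither. Kiss1r, its receptor on GnRH neurons, had a log2 fold change of 0.48 (adjusted p = 0.185, edgeR).

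Oxytocin and vasopressin transcripts varied several-fold between libraries of the same group, so a moderate difference could not be detected. Oxt ranged from 40.5 to 178 CPM in vehicle and from 40.1 to 187 CPM after DES (log2 fold change 0.16, SE 0.39, adjusted p = 0.877, edgeR). Avp ranged from 21.9 to 98.1 CPM and from 7.24 to 143 CPM (log2 fold change -0.30, SE 0.63, adjusted p = 0.853, edgeR). Of 23 tested genes that mark preoptic neurons, 11 were above 0 with a median of -0.02. None was called by edgeR (1 higher and 4 lower had an unadjusted p-value under 0.05), and DESeq2 called 2, Calb1 and Npsr1, both lower.

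Genes that neurons and glia induce within minutes of stimulation were mostly above 0, and Homer1 was the 1 called by edgeR. Of 27 tested immediate early genes, 24 were above 0 with a median log2 fold change of 0.39, and 11 had an unadjusted p-value under 0.05, all higher, and DESeq2 called 6. Fos had a log2 fold change of 0.34 (adjusted p = 0.618, edgeR) and Junb of 0.74 (adjusted p = 0.195). All 16 glucocorticoid-responsive genes were above 0 with a median of 0.26, none was called by edgeR (6 had an unadjusted p-value under 0.05, all higher), and DESeq2 called 1. Their summed levels overlapped, at 388 to 608 CPM and 513 to 735 CPM. Without vehicle replicate 3, the median of the immediate early genes was 0.275 and none was called. Homer1 kept its call in 1 of the 10 fits that left out a library.

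Several of the larger changes were in genes of low level and varied function. Moap1, which encodes a modulator of apoptosis, was at 1.15, 1.47, 1.23, 0.93 and 1.98 CPM in vehicle and at 3.09, 3.32, 3.31, 3.35 and 3.33 CPM after DES, a log2 fold change of 1.28 (SE 0.20, adjusted p = 0.0184, edgeR). H1f10, a linker histone, was at 1.99, 1.71, 2.28, 2.17 and 2.42 CPM and at 3.49, 4.32, 4.32, 5.27 and 4.66 CPM (log2 fold change 1.07, SE 0.17, adjusted p = 0.0184, edgeR). Vbp1, a subunit of the chaperone prefoldin, was at 8.53, 9.31, 10.3, 11.0 and 15.5 CPM and at 19.9, 20.5, 19.9, 23.0 and 20.1 CPM (log2 fold change 0.93, SE 0.14, adjusted p = 0.0184, edgeR). None of the 3 genes overlapped between groups, and DES libraries were closer to each other than vehicle libraries for Moap1 and Vbp1. Rnasek, C1qtnf4, Marcksl1 and Trim62 rose by 0.96, 0.79, 0.76 and 0.76 on the log2 scale, with adjusted p-values from 0.0216 to 0.0455 (edgeR).

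Chst2, a sulfotransferase that modifies glycans, stood at 55.6, 51.9, 56.0, 54.4 and 60.8 CPM in vehicle and at 99.3, 86.4, 68.6, 84.6 and 102 CPM after DES (log2 fold change 0.67, SE 0.09, adjusted p = 0.0184, edgeR). Ahdc1, Ppp1r37 and Ybx3, which encode a DNA-binding protein, a regulatory subunit of protein phosphatase 1 and a cold-shock RNA-binding protein, rose by 0.43, 0.42 and 0.45 (adjusted p = 0.0184 for each, edgeR). All 4 genes were higher in every DES library than in any vehicle library.

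Ribosomal protein genes did not move together. Of 53 tested, 27 were above 0 with a median of 0.00111, Rpl36 and Rps15 were called higher and Rps13 lower. Rpl36 had 17.1, 16.3, 24.0, 20.1 and 26.0 CPM in vehicle and 33.7, 35, 28.2, 40.8 and 37.8 CPM after DES (log2 fold change 0.77, adjusted p = 0.0237, edgeR). Rps13 had 4.55, 4.77, 0.861, 5.89 and 7.38 CPM in vehicle and 0.706, 0.546, 0.254, 0.71 and 0.932 CPM after DES, with a log2 fold change of -2.87 (SE 0.46, adjusted p = 0.0197, edgeR). Vehicle replicate 3 lay within the DES range for Rps13. Ribosomal protein genes have near-identical copies elsewhere in the genome, and how reads with several matches were counted was not given in the sources used here, so these values are uncertain.

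Only 8 genes were lower (0.0551% of those tested) and Rps13 had the largest change among them. Bmerb1, an adaptor for Rab proteins, had the narrowest spread, at 332, 321, 352, 334 and 321 CPM in vehicle and 284, 294, 288, 283 and 284 CPM after DES (log2 fold change -0.21, SE 0.04, adjusted p = 0.0358, edgeR). Kcnip4, an auxiliary subunit of potassium channels, fell by 0.25 on the log2 scale (adjusted p = 0.0466, edgeR), and Oga, the enzyme that removes O-linked N-acetylglucosamine from proteins, fell by 0.26 (adjusted p = 0.0465). Of the 8, 6 were lower in every DES library than in every vehicle library, against 1.21% of all genes tested, and Oga and Rps13 overlapped. Kcnip4 was highest in vehicle replicate 3.

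Thalamus markers moved with that library. Of 13, 12 were below 0 with a median of -0.685, none was called by edgeR (7 lower had an unadjusted p-value under 0.05) or by DESeq2, and without vehicle replicate 3 the median was -0.34. Tcf7l2, a transcription factor of thalamic neurons, was at 118 CPM in vehicle replicate 3 and at 20.8 to 63.1 CPM in the other vehicle libraries, against 14.4 to 43.5 CPM after DES (log2 fold change -1.15, adjusted p = 0.211, edgeR). Without vehicle replicate 3, 75 genes were called, 69 of them among the 149. Hemoglobin and other red cell genes were above 0 in 6 of 6 cases with a median of 0.56, and their sums overlapped, at 397 to 873 CPM and 601 to 987 CPM.

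The lower doses of DES at the same age were set against the same vehicle libraries, so their values are given side by side. At 3 µg/kg per day 43 genes were called (0.299% of those tested), 38 of them higher (0.264%), and at 6 µg/kg per day 0, where 651 genes had an unadjusted p-value under 0.05 and DESeq2 called 4. For the 141 genes higher at 12 µg/kg, the median log2 fold change was 0.12 at the low dose, 0.26 at the middle dose and 0.43 at the high dose. The median over all genes tested was -0.00512, -0.00528 and -0.00384. The 141 genes were chosen as high against these same vehicle libraries, so values above 0 at the other doses are no independent support. They were also chosen at the high dose, so that its median is the largest was set by the choice. The order of the 3 medians is therefore no evidence of a response to dose, and the low and middle doses were not tested against each other. Icam5, Chst2 and Nrgn were called at the low and high doses and not at the middle one. Icam5 had 38.9 ± 6.69 CPM at the low dose, 24.8 ± 10.8 CPM at the middle dose and 36.6 ± 4.49 CPM at the high dose (SD, n = 5). The middle dose thus had the lowest mean of the 3 and the widest spread for this gene.

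The doses were also compared directly, which uses the same high-dose libraries again. Between 12 and 3 µg/kg, 116 genes differed (0.797% of those tested, 103 or 0.707% higher at the high dose), and 39 of the 141 genes were among the higher ones. Olig1 was higher at the high dose by 0.34 (SE 0.05, adjusted p = 0.0378, edgeR), Gfap by 0.50 (SE 0.09, adjusted p = 0.0378) and Vbp1 by 0.71 (SE 0.10, adjusted p = 0.0335). Icam5 did not differ beyond its error, at -0.08 (SE 0.11, adjusted p = 0.781, edgeR). Between 12 and 6 µg/kg, 0 genes were called by edgeR and 0 by DESeq2, with 479 at an unadjusted p-value under 0.05.

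**Figure D4:**
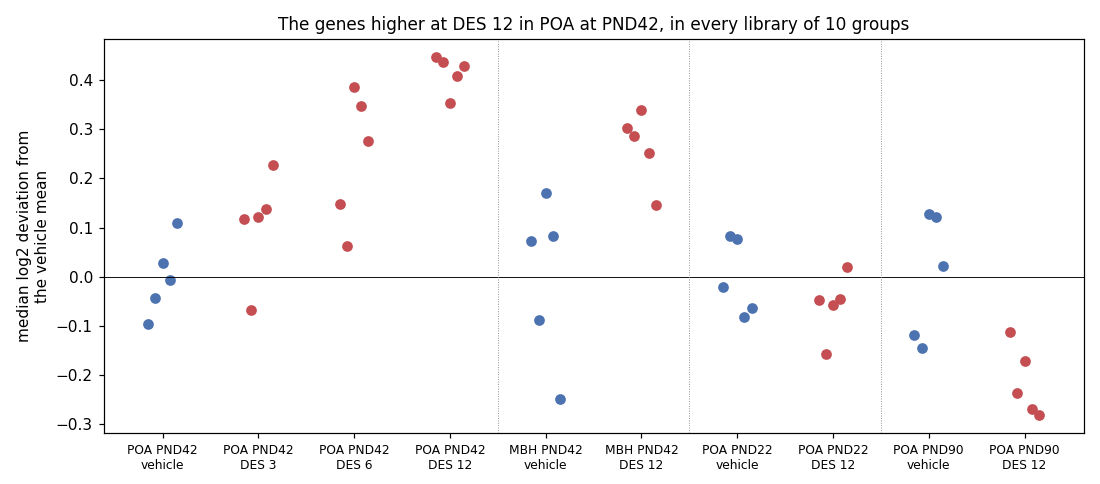
Median, over the 141 genes called higher at DES 12 in the POA at PND42, of the log2 deviation of each library from the vehicle mean of its tissue and age, with 1 point per library. The POA PND42 vehicle and DES 12 libraries are those that chose the genes; the DES 12 libraries lie at 0.15 to 0.34 in the MBH, at -0.16 to 0.02 in the POA at PND22 and at -0.28 to -0.11 in the POA at PND90.

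The mediobasal hypothalamus (MBH), which holds the arcuate kisspeptin neurons, was taken at the same age, largely from the same rats. There DES at 12 µg/kg gave 38 calls (0.257%), 19 (0.129%) in each direction. Of the 141 genes higher in the POA, 113 had a log2 fold change above 0 in the MBH with a median of 0.24, where 49.1% of all genes were above 0. Called there were 2 higher and 2 lower, the lower ones being Adamts4 and Cldn11. Adamts4 went from 63.0 ± 4.55 to 38.0 ± 2.10 CPM in the MBH (SD, n = 5, log2 fold change -0.75, SE 0.07, adjusted p = 0.00129, edgeR). Cldn11 went from 497 ± 62.2 to 255 ± 61.4 CPM (log2 fold change -0.98, SE 0.17, adjusted p = 0.0356, edgeR). Both genes thus fell in the MBH and rose in the POA. Mag had 452 ± 41.0 CPM in vehicle and 325 ± 54.3 CPM after DES in the MBH (log2 fold change -0.49, SE 0.12, adjusted p = 0.117, edgeR). In the MBH 4 of the mature oligodendrocyte markers and 2 of the precursor markers were called lower and none higher.

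The difference of the DES effect between tissues was tested as an interaction, which uses again the POA libraries that chose the genes. In all, 73 genes differed (0.482% of those tested), 62 of them with the higher effect in the POA (0.409%). These included 7 of 17 mature oligodendrocyte markers and 3 of 10 precursor markers, and 12 of the 141 genes. With the animal number as a block, since 9 of the 11 rats gave a library of both tissues, 23 genes differed, among them 5 of the 17 mature markers and 4 of the 141 genes. Adamts4 had an effect higher in the POA by 1.14 on the log2 scale (adjusted p = 2.19e-07, and 0.000936 with the animal block, edgeR). Cldn11 differed by 1.30 (adjusted p = 0.00134, and 0.0356 with the block), and Anln by 1.07 (adjusted p = 0.00211, and 0.0384 with the block). Mag differed by 0.83 (adjusted p = 0.00800) and lost the call with the block (adjusted p = 0.113), as did Chst2, at 0.79 (adjusted p = 0.00680, and 0.209 with the block). For Icam5 and Slc32a1 the difference between tissues did not pass the test, at 0.66 (SE 0.16, adjusted p = 0.0955, edgeR) and 0.39 (SE 0.14, adjusted p = 0.354).

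In the POA of other rats at PND22, the last day of exposure, the same dose gave 29 calls (0.202%), 8 higher (0.0558%) and 21 lower (0.147%). Of the 141 genes, 31 had a log2 fold change above 0 at that age, with a median of -0.12, against 50.2% of all genes. Nrgn and Bcar1 were called, both lower. Nrgn went from 93.7 ± 8.85 to 74.5 ± 4.71 CPM (SD, n = 5, log2 fold change -0.39, SE 0.07, adjusted p = 0.0489, edgeR), in the opposite direction to PND42. Icam5 had 30.7 ± 4.99 and 38.8 ± 3.80 CPM at PND22, a log2 fold change of 0.28 (SE 0.10, adjusted p = 0.169, edgeR). C1ql1 had 22.7 ± 2.34 and 17 ± 2.23 CPM (log2 fold change -0.47, SE 0.11, adjusted p = 0.0648, edgeR).

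In adults at PND90, 0 genes were called by edgeR, with 768 at an unadjusted p-value under 0.05 and 21 called by DESeq2. Of the 141 genes, 5 had a log2 fold change above 0, with a median of -0.22, against 51.1% of all genes. Icam5 had 36.8 ± 11.9 CPM in vehicle and 24.3 ± 4.29 CPM after DES (SD, n = 5, log2 fold change -0.61, SE 0.18, adjusted p = 0.82, edgeR). Slc32a1 had 226 ± 53.0 and 188 ± 23.0 CPM (log2 fold change -0.28, SE 0.13, adjusted p = 0.939, edgeR). Vehicle libraries of both genes spread more widely at PND90 than at PND42.

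The difference of the DES effect between ages was tested with the interaction of age and exposure, again over libraries that include those that chose the genes. Between PND42 and PND22, 758 genes differed (5.11% of those tested), and 103 of the 141 genes were among the 534 (3.6%) with the higher effect at PND42. Between PND42 and PND90, 419 genes differed (2.79%), with 112 of the 141 among the 380 (2.53%) higher at PND42. Nrgn had an effect higher at PND42 than at PND22 by 1.08 (SE 0.13, adjusted p = 0.000823, edgeR), and Slc32a1 by 0.73 (SE 0.18, adjusted p = 0.0259). Against PND90 the difference was 1.44 for Icam5 (SE 0.21, adjusted p = 0.00309, edgeR) and 0.91 for Slc32a1 (SE 0.17, adjusted p = 0.00686). Mag and Cldn11 did not pass the test between ages, with differences of 0.68 (SE 0.29, adjusted p = 0.165, edgeR) and 0.78 (SE 0.29, adjusted p = 0.109) against PND22 and of 0.44 (SE 0.15, adjusted p = 0.14) and 0.31 (SE 0.18, adjusted p = 0.418) against PND90. Gnrh1 differed by -0.06 (SE 0.43, adjusted p = 0.956, edgeR) against PND22 and by 0.56 (SE 0.42, adjusted p = 0.553) against PND90.

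**Figure D5:**
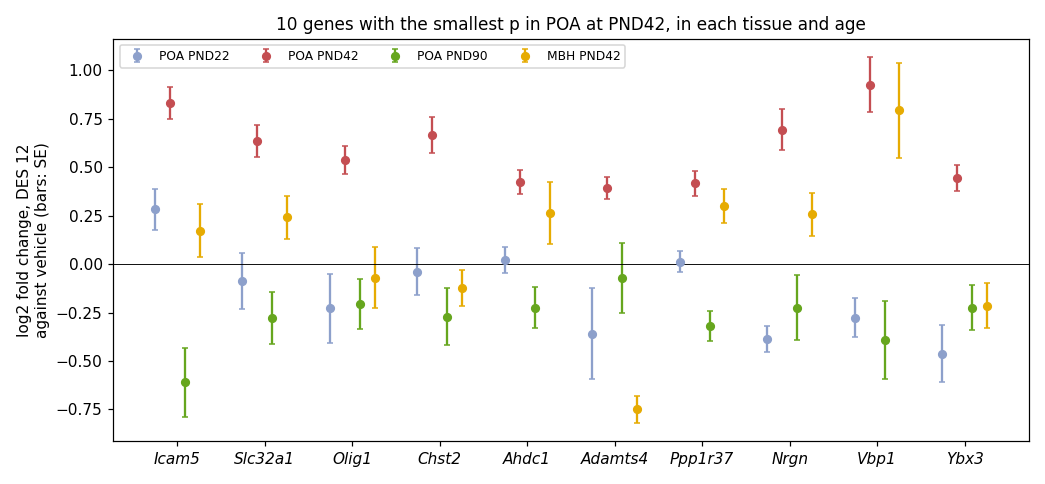
Log2 fold change of DES 12 over vehicle, with its SE, for the 10 named genes of smallest p-value in the POA at PND42, in the POA at 3 ages and in the MBH at PND42 (5 libraries against 5 in each). The genes were chosen by the red values; Adamts4 lies at 0.40 in the POA and at -0.75 in the MBH at PND42, and Nrgn at 0.69 in the POA at PND42 and at -0.39 at PND22.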

How the data were processed

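Messenger RNA of the POA was sequenced by the authors from stranded libraries as read pairs. The authors used STAR for alignment to Rnor_6.0 and featureCounts for assignment to Ensembl genes, and the deposited table holds raw counts per gene in whole numbers, with 1 column per library and no pooling or normalization. Strand and multiple-match settings of the counting were not given in the sources used here, so overlapping, antisense and near-identical genes are uncertain.

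Groups came from the labels. The test was that of edgeR 4.0.16 under R 4.3.3 (glmQLFit and glmQLFTest, TMM factors, filterByExpr at a minimum count of 10, two-sided, Benjamini-Hochberg over all genes tested), with 5 libraries against 5 and no block. CPM are per total count of a library, before TMM scaling. SE was derived from the log2 fold change and the F statistic. Only the edgeR fit of the first comparison, the highest dose of DES against vehicle in the POA at PND42, was tested on simulated data. The other fits were not. p-values measure the spread between the rats sampled. Mothers were dosed and litters were not given, so littermates may be counted as separate rats and the p-values may be too small. Interactions were fitted over 20 libraries. DESeq2 1.42.0, limma 3.58.1, other filters and scalings, a replicate block and leaving out each library were alternatives.

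Animal numbers, which the labels give, were shared between tissues by 9 rats, whose deviations from the group means correlated at -0.205 to 0.126.

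Named genes were, among called genes whose symbol is no clone identifier and whose mean log2 CPM reaches 1, the 12 higher and up to 12 lower ones with the largest change and the 10 with the smallest adjusted p-value. To these came every called member of 43 gene lists, the first 3 genes of each list discussed, and Esr1, Pgr, Gnrh1, Kiss1, Oxt and Avp. Of the lists, 10 held a called gene. The members and lists were chosen with earlier results of these data known. Proteins and genome sequence were not used here. Some genes that this rule names are not reported here.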

Additional observations from a re-analysis of the deposited data

Results flagged for a closer look

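In 88 groups of 5 libraries of the named genes, 5 held a library far from the other 4 by Dixon's test, which chance does in about 1 of 20 groups. These were Vbp1 in DES replicate 4 (23.0 CPM, the others 19.9 to 20.5), Moap1 in DES replicate 1 (3.09 CPM, the others 3.31 to 3.35) and Nkx6-2 in DES replicate 1 (8.21 CPM, the others 6.21 to 6.79). Irs2 in DES replicate 4 (128 CPM, the others 107 to 113) and Kcnip4 in vehicle replicate 3 (119 CPM, the others 104 to 107) were the remaining ones. For Moap1 the distant library was the lowest of its group and for the other 4 genes the highest.

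The DES effect differed between tissues at PND42 in 73 genes, between PND42 and PND22 in the POA in 758 genes, and between PND42 and PND90 in 419 genes, by the interaction term of edgeR. These tests share the POA libraries of PND42 that chose the genes below. Among the 10 genes of smallest p-value in the POA at PND42, the effect was higher in the POA than in the MBH for Adamts4 by 1.14 on the log2 scale (adjusted p = 2.19e-07, edgeR), for Chst2 by 0.79 (adjusted p = 0.00680) and for Ybx3 by 0.66 (adjusted p = 0.0254). With the animal number as a block, Adamts4 was called (adjusted p = 0.000936, edgeR), and Chst2 (0.209) and Ybx3 (0.299) were not.

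The effect was higher at PND42 than at PND22 by 0.55 for Icam5, 0.73 for Slc32a1, 0.77 for Olig1, 0.71 for Chst2, 0.41 for Ahdc1, 0.405 for Ppp1r37, 1.08 for Nrgn, 1.20 for Vbp1 and 0.91 for Ybx3, with adjusted p-values between 0.000823 and 0.0395 (edgeR). It was higher at PND42 than at PND90 by 1.44 for Icam5, 0.91 for Slc32a1, 0.74 for Olig1, 0.94 for Chst2, 0.64 for Ahdc1, 0.73 for Ppp1r37, 0.91 for Nrgn, 1.31 for Vbp1 and 0.67 for Ybx3, with adjusted p-values between 0.00309 and 0.0234 (edgeR). Adamts4 was the 1 gene of the 10 for which neither difference between ages passed the test.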

How the results depend on the processing

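The number of genes called depended on the tool and on single libraries. For DES 12 against vehicle in the POA at PND42, 149 genes by edgeR became 653 by DESeq2 (148 of the 149 shared), 245 by limma-voom with sample weights, 59 in 1 fit of all 7 groups and 6 with a replicate block. The replicate numbers do not pair the libraries, as deviations from the group means correlated at -0.199 to 0.27 between same-numbered ones, and 2 of 5 numbers correlated best with their own. Scaling by DESeq2's size factors gave 109 calls, no filter 201, and no normalization factor, chosen after seeing the data, 171. Leaving out each library in turn gave 1 to 293. With DESeq2 the other comparisons gave 275 (DES 3), 4 (DES 6), 691 (DES 12 against DES 3), 450 (MBH), 748 (PND22), 21 (PND90), 165 (POA against MBH), 1315 (PND42 against PND22) and 742 (PND42 against PND90) calls. Without a filter DES 3 gave 102 and PND22 gave 16. The replicate block gave 0 for DES 12 against DES 3, 2 for the MBH and 47 for PND22, and the animal block 23 for POA against MBH. Leaving out 1 library gave 1 to 192 for DES 3, 0 to 0 for DES 6, 0 to 765 for DES 12 against DES 3, 0 to 0 for DES 12 against DES 6, 5 to 88 for the MBH, 0 to 255 for PND22, 0 to 1 for PND90, 34 to 110 for POA against MBH, 321 to 1120 for PND42 against PND22 and 216 to 582 for PND42 against PND90. None of the called genes that are named changed sign under any alternative. Oxt, which was not called, ranged from -0.06 to 0.38 on the log2 scale around its 0.16, below 0 without vehicle replicate 2 and without DES replicate 3. DESeq2 called Gnrh1 and Kiss1 in the fit of the 2 groups, which edgeR did not. A DESeq2 fit of vehicle with all DES doses called 196 genes (104 of the 149 shared) and neither Gnrh1 nor Kiss1. These 2 genes were not called in 9 of the 10 alternatives of tool, filter, scaling or design, nor in any fit that left out a library. The cause of these changes was not tested. With 5 libraries a group and the calls close to the threshold, genes of low level such as Moap1 are limited by counting error as well as by the spread between rats.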

Other observations

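Ketoconazole (KTZ), an antifungal drug that inhibits steroid synthesis, was given to other groups of the same age over the same window, and their POA libraries were set against the same 5 vehicle libraries. For the 141 genes higher after DES 12, the median log2 deviation of a library from the vehicle mean lay between 0.212 and 0.564 (median 0.456) at 3 mg/kg per day of KTZ. At 6 mg/kg it lay between 0.127 and 0.426 (median 0.368), and at 12 mg/kg between 0.0884 and 0.305 (median 0.238). The DES 12 libraries, which chose the genes, lay between 0.353 and 0.447 (median 0.428), and the vehicle libraries between -0.0949 and 0.109. Rats that received no DES thus had values as high for these genes, with the median at 3 mg/kg of KTZ above that of DES 12. The vehicle libraries, against which the genes were chosen as high, are shared by all of these comparisons and set the 0, so values above 0 are no independent support, and the difference between KTZ doses was not tested. The oxytocin receptor gene Oxtr was at 0.962, 0.883, 0.492, 0.248 and 0.434 CPM in vehicle and at 1.06, 1.19, 1.42, 1.67 and 1.6 CPM after DES, without overlap. It was called neither by edgeR nor by DESeq2.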
